A study of Mus musculus with 10 samples.

Results

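A set of 10 genes that receive, carry out or restrain fibroblast growth factor (FGF) signalling was followed through the development of the mouse lower incisor: the receptors *Fgfr1*, *Fgfr2* and *Fgfr3*, the transcription factors *Etv4* and *Etv5*, and the feedback inhibitors *Spry1*, *Spry2*, *Spry4*, *Dusp6* and *Spred1*. They are 10 of the 32285 genes in each matrix and were chosen by symbol. Single cells of wild-type NMRI embryos were collected from whole mandibles at E11.5 and, at E14.5 as well as E16.5, from buds of the lower incisor, with no treatment or genetic change in any group. The labels list 4, 4 and 2 samples, but the samples of a stage share 1 matrix and their barcodes carry no sample name. Each stage was therefore 1 sample, no test between groups was possible, and every interval below is a 95% interval that covers counting error only. Stage, litter, library and the dissected tissue cannot be told apart.

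FGF ligands bind receptor tyrosine kinases and activate the RAS and ERK kinases inside the cell. ERK activity raises transcription of the ETS factors *Etv4* and *Etv5* and of inhibitors that act back on the same cascade, so these genes are widely used as a readout of FGF signalling in tissues. In the tooth, FGFs pass in both directions between the dental epithelium and the mesenchyme beneath it, and they take part in the maintenance of the epithelial stem cells of the incisor.

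After removal of cells with fewer than 700 genes or more than 20% mitochondrial UMIs (a UMI, or unique molecular identifier, tags 1 captured RNA molecule), the matrices of E11.5, E14.5 and E16.5 retained 6573, 6091 and 4511 cells, with a median depth of 5664, 3471 and 6260 UMIs. A cell was assigned to a lineage when it held at least 3 of the markers of that lineage and its share of detected markers was at least 2 times that of any other lineage. Epithelium held 10, 724 and 1390 cells at the 3 stages, mesenchyme 5250, 4557 and 2455, and endothelium 63, 140 and 111, while 1025, 516 and 519 cells were left uncalled. The same markers made the calls, so their sums describe the groups and cannot test how pure they are. In epithelium the 15 epithelial markers summed to between 2291 and 3416 CPM (UMIs of a gene scaled to 1000000 UMIs of the group). In mesenchyme they summed to between 8.89 and 156 CPM, and the 12 mesenchymal markers to between 101.3 and 124.6 CPM in epithelium. The matrices shared between 13 and 17 barcodes. The E11.5 matrix stood apart in holding 0 UMIs of Y-linked genes, against 1268 at E14.5 and 1977 at E16.5, and the part of this in the differences between stages was not tested. Only 10 epithelial cells were found at E11.5, and comparisons that need them are given as values without a call.

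The 10 members lie on 10 different chromosomes. On GRCm38 (GENCODE vM21, another release than the one the reads were counted on), *Fgfr1* (ENSMUSG00000031565) lies on chromosome 8 at 25513654-25575718, *Fgfr2* (ENSMUSG00000030849) on chromosome 7 at 130162451-133123350 and *Fgfr3* (ENSMUSG00000054252) on chromosome 5 at 33721674-33737068. *Etv4* (ENSMUSG00000017724) is found on chromosome 11 at 101769742-101785371 and *Etv5* (ENSMUSG00000013089) on chromosome 16 at 22381309-22439719. Among the inhibitors, *Spry1* (ENSMUSG00000037211) lies on chromosome 3 at 37639947-37644598, *Spry2* (ENSMUSG00000022114) on chromosome 14 at 105891947-105896819, *Dusp6* (ENSMUSG00000019960) on chromosome 10 at 99263231-99267489 and *Spred1* (ENSMUSG00000027351) on chromosome 2 at 117121374-117182279. *Spry4* has the identifier ENSMUSG00000024427. The libraries count the 3' ends of transcripts over the whole gene, so the splice forms of the receptors that bind different ligands were not separated.

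The 250 bases upstream of the annotated start were taken from RefSeq (GRCm38.p6) for the feedback inhibitors, because their transcription is the readout followed below, and 7 of the 10 members (not *Fgfr1*, *Etv4* and *Spry4*) had an entry. The sequences run 5' to 3' on the strand of the gene, and capitals mark the ETS core GGAA on either strand. The RefSeq start of *Spred1* lies upstream of the GENCODE start given above, so its window does not adjoin that start.
Spry1 (chr3:37639697-37639946, plus strand): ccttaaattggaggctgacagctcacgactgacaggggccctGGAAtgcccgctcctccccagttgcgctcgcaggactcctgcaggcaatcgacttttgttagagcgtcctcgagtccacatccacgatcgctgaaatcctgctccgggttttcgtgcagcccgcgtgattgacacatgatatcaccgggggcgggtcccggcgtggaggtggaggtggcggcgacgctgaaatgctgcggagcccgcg
Spry2 (chr14:105896820-105897069, minus strand): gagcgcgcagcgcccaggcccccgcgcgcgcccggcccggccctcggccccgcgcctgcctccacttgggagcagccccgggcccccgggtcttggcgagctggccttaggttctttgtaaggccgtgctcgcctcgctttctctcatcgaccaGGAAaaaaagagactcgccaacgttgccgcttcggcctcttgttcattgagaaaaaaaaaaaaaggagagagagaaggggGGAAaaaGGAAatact
Dusp6 (chr10:99262981-99263230, plus strand): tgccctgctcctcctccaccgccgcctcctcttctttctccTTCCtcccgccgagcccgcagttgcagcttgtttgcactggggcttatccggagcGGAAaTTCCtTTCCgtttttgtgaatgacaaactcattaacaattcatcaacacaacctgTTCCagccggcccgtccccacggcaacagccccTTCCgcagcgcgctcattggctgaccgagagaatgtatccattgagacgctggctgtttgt
Spred1 (chr2:117120821-117121070, plus strand): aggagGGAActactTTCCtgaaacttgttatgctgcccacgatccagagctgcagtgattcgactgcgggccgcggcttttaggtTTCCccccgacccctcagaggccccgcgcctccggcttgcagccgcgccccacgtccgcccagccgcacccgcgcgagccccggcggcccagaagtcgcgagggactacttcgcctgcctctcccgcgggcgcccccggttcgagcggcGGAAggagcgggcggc
The core occurred 1 time upstream of *Spry1*, 3 times upstream of *Spry2*, 6 times upstream of *Dusp6* and 4 times upstream of *Spred1*. It is short, and 93.4% of 32851 mouse windows of the same length held at least 1 copy, with a median of 3. The longer form CCGGAAG, which contains the core, was in 6.91% of all windows and in 0 of the 9 windows of the 7 matched members, both strands searched. The variant CAGGAAG was in 10.8% of all windows and in 1 of the 9, that of *Fgfr2*. These letters describe the windows and say nothing of binding.

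Among the receptors, *Fgfr1* was read in every tissue lineage, *Fgfr2* was highest in epithelium and *Fgfr3* was low throughout (the plot of levels by stage and lineage). *Fgfr1*, the receptor with the broadest expression of the family, was at 118 CPM in mesenchyme at E11.5 (interval 115 to 122), 172 at E14.5 (166 to 178) and 160 at E16.5 (154 to 166). In epithelium it was at 112 CPM at E14.5 (103 to 121) and 205 at E16.5 (198 to 212), so mesenchyme was the higher lineage at E14.5 and epithelium at E16.5. Endothelium followed at 44.8, 43.4 and 32.1 CPM at the 3 stages. Immune cells, which serve as a level of free RNA for the receptors, were at 2.52, 8.48 and 0 CPM, the last allowing up to 11.8. The 105 erythroid cells of E11.5, another class for that level, were at 9.32 CPM (3.42 to 20.3).

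*Fgfr2*, whose epithelial form answers FGFs made by the mesenchyme, was at 51.1 CPM in epithelium at E14.5 (45.3 to 57.4) and 87.1 at E16.5 (82.4 to 91.9). In mesenchyme it was at 14.8, 21.1 and 31.2 CPM from E11.5 to E16.5, and the intervals of the stages did not overlap. Endothelium was lower still, with 1, 1 and 4 UMIs or 1.49, 1.45 and 4.28 CPM, and the immune cells held 1, 0 and 1. *Fgfr3*, best known as a brake on the growth of cartilage, was at 0.368 CPM in mesenchyme at E11.5 from 15 UMIs, with 6.60 at E14.5 and 11.46 at E16.5. It was lower in epithelium, at 1.43 CPM (0.617 to 2.82) and 5.32 CPM (4.22 to 6.62) at the later stages.

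*Etv4* and *Etv5*, related ETS factors that are induced together by FGF signalling in many organs, were highest in epithelium. *Etv4* was at 52.0 CPM in epithelium at E14.5 (46.2 to 58.3) and 33.4 at E16.5 (30.5 to 36.5), and at 9.41, 20.2 and 6.91 CPM in mesenchyme from E11.5 to E16.5. *Etv5* was at 57.0 CPM (50.9 to 63.6) and 33.3 CPM (30.5 to 36.4) in epithelium, and at 23.4, 26.9 and 10.9 CPM in mesenchyme. Both thus had their highest mesenchymal level at E14.5. For *Etv5* the step from E11.5 was small, a log2 ratio with 10 CPM added of 0.14 (0.03 to 0.26), and 0.04 as a mean of CPM per cell. No *Etv4* UMI was found in the immune cells of any stage, which allows up to 7.56, 3.64 and 11.8 CPM, whereas *Etv5* was read there at 22.7 CPM at E11.5 (10.4 to 43.1), an interval that held the mesenchymal level.

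The inhibitors did not share 1 order of lineages. *Spry2*, a Sprouty protein that restrains receptor tyrosine kinase signalling, was at 50.7 CPM in epithelium at E14.5 (45.0 to 57.0) and 51.5 at E16.5 (47.9 to 55.3), and at 16.3, 7.60 and 8.32 CPM in mesenchyme. *Spry4*, of the same family, followed another order among epithelium, mesenchyme and endothelium. Endothelium was highest at 40.3, 37.6 and 33.1 CPM, mesenchyme came next at 5.56, 13.1 and 8.09, and epithelium was lowest at 1.97 and 4.59. Outside these lineages, a cluster of 27 mostly uncalled cells at E16.5, led by *Rgs5* and *Acta2*, read 74.8 CPM (45.0 to 117). *Spry1* was near even at E11.5, with 12.6 CPM in mesenchyme and 14.9 in endothelium (7.16 to 27.5), but reached 50.6 CPM (35.3 to 70.4) and 68.4 CPM (52.7 to 87.3) in endothelium at the later stages, against 15.0 and 19.0 in epithelium and 9.23 and 6.41 in mesenchyme.

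*Dusp6*, the phosphatase that removes phosphate from ERK in the cytoplasm, was at 105 CPM in epithelium at E14.5 (96.4 to 114) and 49.6 at E16.5 (46.1 to 53.3). In mesenchyme it became lower with each stage, at 40.5, 29.1 and 9.50 CPM. Endothelium was at 117, 94.1 and 135 CPM, and at E14.5 its interval (72.6 to 120) overlapped that of epithelium. *Spred1*, which brings the RAS inhibitor neurofibromin to the membrane, was the most even of the inhibitors, between 41.4 and 52.8 CPM in mesenchyme, 69.5 and 80.8 in epithelium and 56.4 and 86.6 in endothelium. Immune cells read 80.6, 86.0 and 102 CPM of *Spred1*, and 60.5 CPM of *Dusp6* at E11.5 (38.8 to 90.0). They are therefore no free RNA level for *Spred1*, nor for *Dusp6* at E11.5. The clusters of mostly immune cells read less *Dusp6* later, 14.1 CPM (7.70 to 23.6) at E14.5 and 18.5 CPM (6.78 to 40.2) at E16.5. The erythroid cells of E11.5 were at 6.21 CPM of *Spred1* and 7.77 of *Dusp6*.

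**Figure D1:**
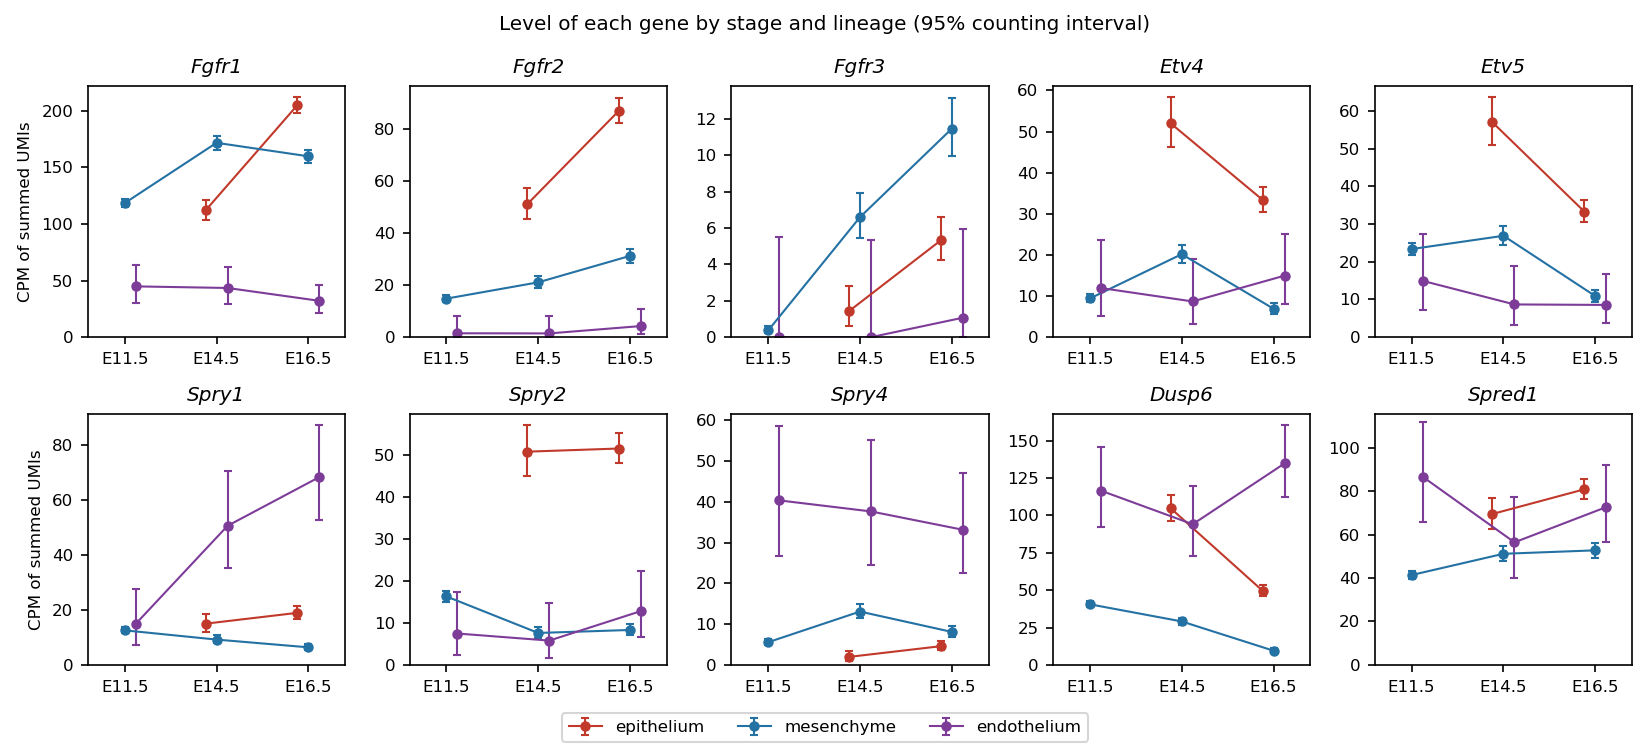
Level of each member (y axis, CPM of summed UMIs, starting at 0) by stage (x axis) in epithelium, mesenchyme and endothelium, with bars for 95% counting intervals; groups under 50 cells are left out. *Spry2*, *Etv4* and *Etv5* are highest in epithelium at both later stages, and *Spry4* and *Spry1* in endothelium.

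At E11.5 the 10 epithelial cells held between 0 and 9 UMIs of each member. *Fgfr2* and *Spred1* had 9 UMIs each, or 70.1 CPM (32.1 to 133), and *Fgfr1* had 4 UMIs, or 31.2 CPM (8.49 to 79.8). Log2 ratios of epithelium over mesenchyme, with 10 CPM added to both and no call, ran from *Fgfr1* at -1.64 (-2.8 to -0.51) to *Fgfr2* at 1.69 (0.76 to 2.53). *Etv4* and *Fgfr3* had 0 UMIs, which allows up to 23.4 CPM. *Etv5*, *Spry1*, *Spry2* and *Dusp6* each had 5 UMIs, or 39.0 CPM (12.7 to 90.9), a range too wide to place these cells above or below the 23.4, 12.6, 16.3 and 40.5 CPM of the mesenchyme, except that the lower end for *Spry1* was just above its mesenchymal level.

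For *Dusp6*, *Spry2* and *Fgfr1*, shares of cells gave the same picture at equal depth. After each cell was thinned to 2000 UMIs, which left out 55 epithelial and 624 mesenchymal cells at E14.5 and 92 and 44 at E16.5, a *Dusp6* UMI was found in 13.6% of epithelial and 4.70% of mesenchymal cells at E14.5 and in 8.55% and 1.62% at E16.5. Before thinning the shares were 36.5% and 9.04%, and 25.3% and 6.35%. Thinned shares for *Spry2* were 8.82% and 1.35% at E14.5 and 8.86% and 1.53% at E16.5. For *Fgfr1* they were 17.8% and 27.5% at E14.5 and 29.2% and 26.9% at E16.5. In the immune cells at the same depth the shares at E14.5 were 0.893% of 112 cells for *Fgfr1* and for *Spry2*, and 3.57% for *Dusp6*. The mesenchymal share of *Spry2* at E14.5 lay close to that of the immune cells, and its epithelial share above it. For *Dusp6* the mesenchymal share of 4.70% lay near the immune 3.57%, and the epithelial share above both. Immune cells held *Dusp6* at E11.5, and whether their E14.5 share is background was not tested.

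The first comparison asked in which tissue of the tooth germ these genes were higher. Ratios are log2 ratios of epithelium over mesenchyme with 10 CPM added to both, so low genes are drawn towards 0, and a gene was called past 2-fold from 1 upward or -1 downward if the groups together held at least 50 UMIs. At E14.5, 3 of the 10 members were past 2-fold higher in epithelium and 0 were lower, where 3.78% of 11387 genes were higher and 4.24% lower. These were *Spry2* at 1.79 (1.61 to 1.95), *Dusp6* at 1.55 (1.41 to 1.70) and *Etv4* at 1.04 (0.86 to 1.21). *Fgfr2* at 0.98 (0.80 to 1.15) and *Etv5* at 0.86 (0.69 to 1.03) lay just under the threshold, and *Spry4* at -0.95 (-1.09 to -0.75) just above the lower one. The median of the 10 members was 0.62, against 0.02 for all genes counted.

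At E16.5, 5 of the 10 members were past 2-fold higher in epithelium and 0 were lower, where 3.57% of 12441 genes were higher and 4.57% lower. *Spry2* was at 1.75 (1.61 to 1.88), *Dusp6* at 1.61 (1.48 to 1.75), *Etv4* at 1.36 (1.22 to 1.5), *Fgfr2* at 1.24 (1.12 to 1.35) and *Etv5* at 1.05 (0.91 to 1.19). *Spry1* followed at 0.82 and *Spred1* at 0.53, while *Spry4* and *Fgfr3* leaned to the mesenchyme at -0.31 and -0.49. The median of the members was 0.94, against 0.04 for all genes. *Fgfr1* was the member whose sign differed between the stages, since its ratio at E14.5 was -0.57 (-0.69 to -0.46) and its E16.5 ratio 0.34 (0.27 to 0.41). Adding 50 CPM left 0 members past 2-fold at either stage. Thinning to 2000 UMIs gave *Etv4* a ratio of 0.84 at E14.5, *Etv5* 0.58 and *Fgfr2* 0.55, each below its interval. The call of *Etv4* at E14.5 was thereby lost. *Dusp6* was then at 1.30 at E14.5, also below its interval but still past 2-fold. The stress list described below summed to 2478 CPM in epithelium and 1285 in mesenchyme at E14.5, and to 1477 and 2216 at E16.5, and its part was not tested.

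**Figure D2:**
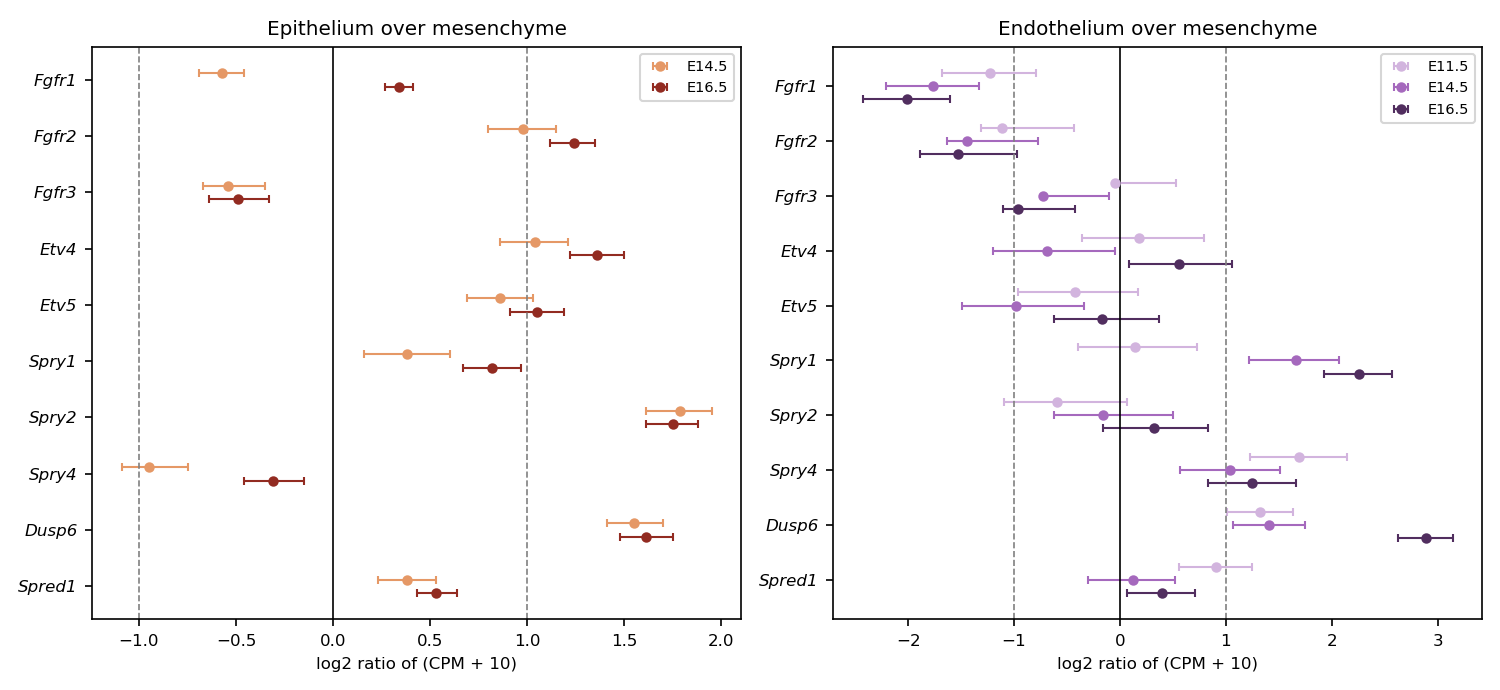
Log2 ratio of (CPM + 10) of each member (x axis) for epithelium over mesenchyme (left) and endothelium over mesenchyme (right), 1 colour per stage, with bars for 95% counting intervals and dashed lines at 2-fold. *Spry2*, *Dusp6* and *Etv4* lie right of the line in epithelium at both stages, and *Fgfr1* and *Fgfr2* left of the lower line in endothelium at all 3, *Fgfr2* from at most 4 endothelial UMIs and within 2-fold at the later stages with lineages taken from clusters.

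Between E14.5 and E16.5, no member passed 2-fold in epithelium, and the members did not share 1 direction. The ratios of E14.5 over E11.5 rested on 10 epithelial cells at E11.5 and were not called. They ran from *Spry1* at -0.97 (-2.03 to 0.17) to *Etv4* at 2.63 (0.67 to 2.63), the latter with 0 UMIs at E11.5. From E14.5 to E16.5, *Fgfr1* was higher by 0.82 (0.70 to 0.93) and *Fgfr2* by 0.67 (0.51 to 0.83) on the log2 scale, while *Dusp6* was at -0.94 (-1.08 to -0.80), *Etv5* at -0.63 (-0.80 to -0.46) and *Etv4* at -0.51 (-0.69 to -0.34). *Spry2* was at 0.02 (-0.15 to 0.19) and *Spry1* at 0.21 (-0.01 to 0.43), both intervals holding 0. *Spry4* at 0.29 (0.08 to 0.44) and *Spred1* at 0.19 (0.05 to 0.34) were on the side of the receptors. Thinned to 2000 UMIs per cell, *Dusp6* was at -0.58, *Etv5* at -0.42 and *Etv4* at -0.29, all nearer to 0. *Fgfr1* was then at 0.69 and *Fgfr2* at 0.93. As a mean of CPM per cell, *Spred1* was at -0.05, so its side was not stable. Past 2-fold were 0 of the 10 members, where 1.18% of 11193 genes were higher and 0.339% lower. At 1.5-fold, a threshold chosen after the values were seen and given without a share of all genes, *Fgfr1* and *Fgfr2* were higher and *Etv5* and *Dusp6* lower. The 14 genes of a list of dissociation stress, immediate early and heat shock genes such as *Fos* and *Hspa1a*, summed to 2478 CPM at E14.5 and 1477 at E16.5 in epithelium, and the 10 genes of a cell cycle list to 2512 and 2474. The part of either in these differences was not tested.

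In mesenchyme, *Dusp6* was the member past 2-fold from E14.5 to E16.5, at -1.0 (-1.14 to -0.86), where 0.419% of 12166 genes were lower and 1.25% higher. *Etv4* at -0.84 (-0.98 to -0.69) and *Etv5* at -0.82 (-0.96 to -0.68) stood next to it, and *Fgfr2* at 0.41 and *Fgfr3* at 0.37 were the highest members. Thinned to 2000 UMIs per cell, *Fgfr2* was at 0.18, under its interval (0.27 to 0.54). From E11.5 to E14.5 it was at 0.48 when thinned, in place of 0.32. The call of *Dusp6* lay on the threshold and was lost under 5 alternatives, with ratios from -0.99 to -0.41. From E11.5 to E14.5 none of the 10 members passed 2-fold, where 2.82% of 12691 genes were higher and 1.94% lower. *Fgfr3* was at 0.68, *Etv4* at 0.64, *Spry4* at 0.57 and *Fgfr1* at 0.50, while *Spry2* was at -0.58 (-0.70 to -0.45) and *Dusp6* at -0.37 (-0.48 to -0.26). *Etv4* therefore stood higher at E14.5 than at either other stage in mesenchyme, and *Dusp6* was lower at each later stage. The stress list summed to 330, 1285 and 2216 CPM in mesenchyme from E11.5 to E16.5, with 9 of 14 genes past 2-fold higher from E11.5 to E14.5 and 5 of 14 from E14.5 to E16.5. The cell cycle list summed to 4012, 2696 and 2152 CPM. The part of either was not tested.

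**Figure D3:**
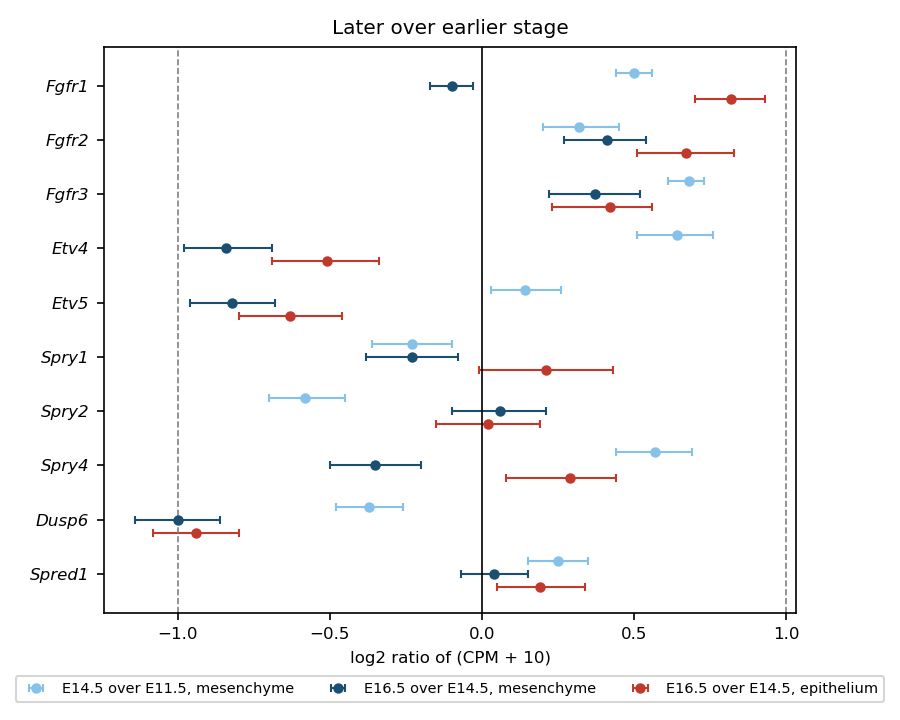
Log2 ratio of (CPM + 10) of the later over the earlier stage (x axis) for each member in mesenchyme and epithelium, with bars for 95% counting intervals and dashed lines at 2-fold. *Dusp6*, *Etv4* and *Etv5* lie left of 0 from E14.5 to E16.5 in both lineages, and *Fgfr2* right of 0 in all 3 comparisons.

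A comparison of endothelium with mesenchyme was added after the values were seen. Endothelium had the lower *Fgfr1*, at -1.23, -1.76 and -2.01 from E11.5 to E16.5, and the lower *Fgfr2*, at -1.11, -1.44 and -1.53, while *Spry4* and *Dusp6* were higher there at each stage and *Spry1* at the later ones. *Spry4* was at 1.69 (1.23 to 2.14), 1.04 (0.57 to 1.51) and 1.25 (0.83 to 1.66), and *Dusp6* at 1.32 (1.01 to 1.63), 1.41 (1.07 to 1.75) and 2.89 (2.63 to 3.14). *Spry1* was at 0.14 (-0.40 to 0.73), 1.66 (1.22 to 2.07) and 2.26 (1.93 to 2.57). Past 2-fold were 2, 3 and 3 members higher and 2, 2 and 2 lower, with 9, 10 and 10 members holding enough UMIs. The background was 6.94%, 6.51% and 6.70% of genes higher and 6.06%, 7.28% and 8.44% lower. *Etv5* was at -0.42 (-0.96 to 0.17), -0.98 (-1.49 to -0.34) and -0.17 (-0.62 to 0.37), with only the E14.5 interval below 0. *Etv4* was at 0.18 (-0.36 to 0.79), -0.69 (-1.20 to -0.05) and 0.56 (0.09 to 1.06), with no single direction. Thinned to 2000 UMIs per cell, *Etv5* was at 0.60 and *Etv4* at 1.33 at E11.5. The side of *Etv5* and the size of the *Etv4* ratio were therefore not stable at that stage. Endothelium rested on 63, 140 and 111 cells, and *Fgfr2* on 1, 1 and 4 of their UMIs. With the lineage taken from the cluster of a cell, the ratio of *Fgfr2* was -0.53 at E14.5 and -0.94 at E16.5, and that of *Spry4* 0.92 at E14.5, so these calls were lost. The stress list summed to 953, 2714 and 2507 CPM in endothelium against 330, 1285 and 2216 in mesenchyme, with 8 of 13, 7 of 14 and 5 of 14 genes past 2-fold higher, and its part was not tested.

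Cells with a UMI of *Etv4* or *Etv5* were set against cells of the same lineage and stage with none, at 2000 UMIs per cell. They made up 5.77% of mesenchyme at E11.5, 14.3% of epithelium and 7.91% of mesenchyme at E14.5, and 10.9% and 2.57% at E16.5. *Dusp6* was above 0 in the positive over the negative cells in all 5 comparisons, and its interval lay above 0 in 4. In E14.5 mesenchyme it was at 59.5 CPM in 311 positive cells and 22.0 CPM in 3622 negative cells, a log2 ratio of 1.12 (0.67 to 1.56). In E16.5 epithelium it was at 98.6 and 41.5 CPM, a ratio of 1.08 (0.50 to 1.63). E14.5 epithelium gave 0.79 (0.13 to 1.41), E11.5 mesenchyme 0.56 (0.09 to 1.01) and E16.5 mesenchyme 0.95 (-0.27 to 2.19), the last from 3 UMIs in 62 positive cells. Thinned to 1000 UMIs, *Dusp6* was at 0.86 in E14.5 mesenchyme and 0.14 in E16.5 epithelium, and without thinning at 0.89 and 1.45. In E16.5 mesenchyme it was at 0.14 without thinning.

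Other members varied more between these comparisons. *Spry2* was at 0.95 (0.18 to 1.67) in E14.5 epithelium and 0.12 (-0.57 to 0.78) in E16.5 epithelium, and *Spry1* at 1.03 (0.26 to 1.75) in E16.5 epithelium, from 13 UMIs in the positive cells. *Fgfr2* was at -1.20 (-2.20 to -0.02) in E14.5 epithelium from 3 UMIs, and thinning to 1000 UMIs gave it 0.25. *Fgfr3* was at 1.26 (0.10 to 2.32) in E16.5 mesenchyme from 5 UMIs and at 0.03 without thinning. *Spred1* lay between -0.40 and 0.44, and each of its intervals held 0. Members past 2-fold higher numbered 0 of 6 in E11.5 mesenchyme, 0 of 5 in E14.5 epithelium, 1 of 8 in E14.5 mesenchyme, 2 of 6 in E16.5 epithelium and 1 of 4 in E16.5 mesenchyme. The share of all genes past 2-fold higher was 0.0323%, 0.833%, 0.136%, 0.417% and 2.01%. Past 2-fold lower was 1 member, *Fgfr2* in E14.5 epithelium, where 1.95% of genes were lower. In the other 4 comparisons 0.0862% (E11.5 mesenchyme), 0.296% (E14.5 mesenchyme), 2.1% (E16.5 epithelium) and 8.84% (E16.5 mesenchyme) of genes were past 2-fold lower.

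**Figure D4:**
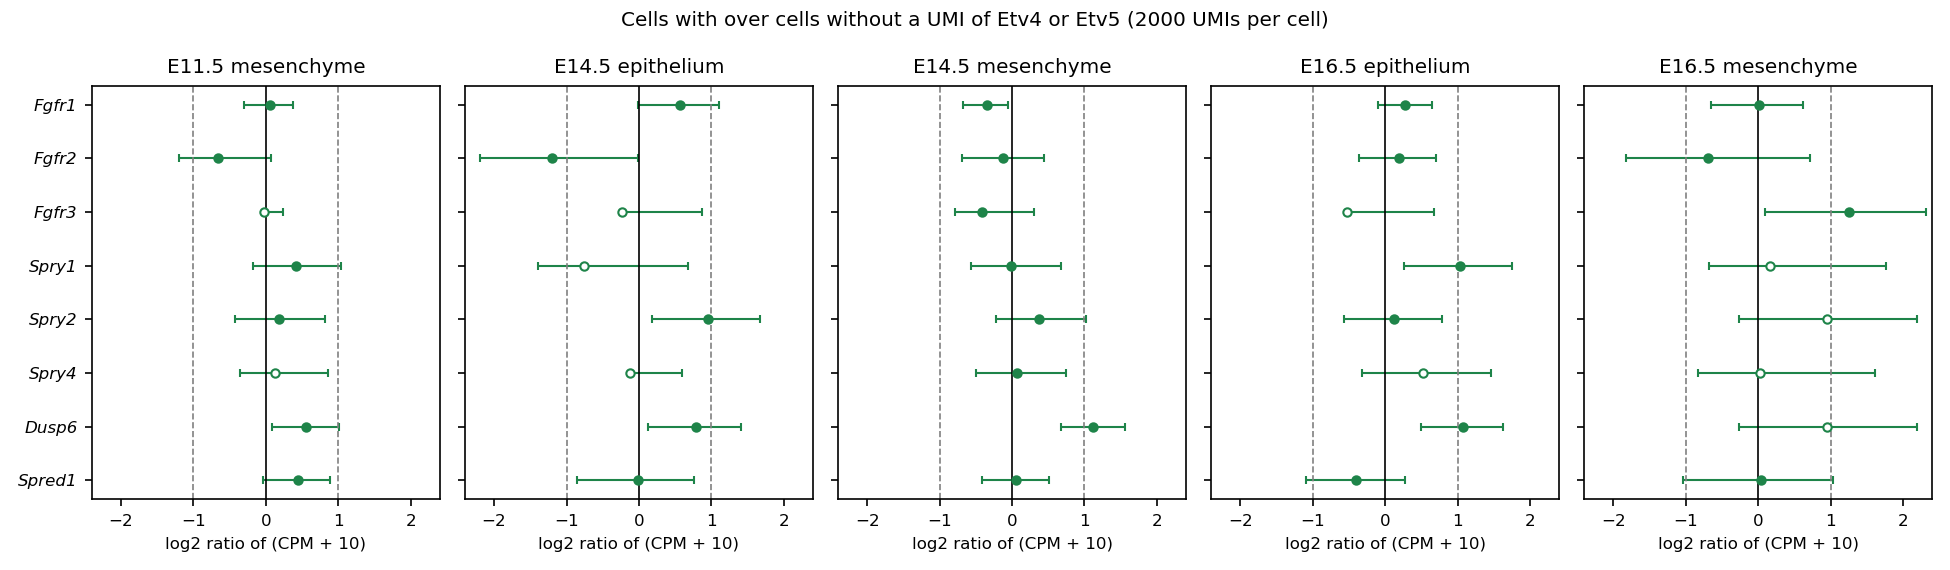
Log2 ratio of (CPM + 10) of the other members in cells with over cells without a UMI of *Etv4* or *Etv5* (x axis), at 2000 UMIs per cell, 1 panel per stage and lineage, with bars for 95% counting intervals. Open points mark genes under 50 UMIs. *Dusp6* lies right of 0 in each panel.

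Cells with a UMI of a regional marker were compared with the other cells of their lineage, over 27 pairs of groups (4 more had under 50 cells), and 19 of 256 member ratios passed 2-fold, where 1.05% of all gene ratios did. In epithelium, cells with *Shh*, the signal of the enamel knot and later of the differentiating inner epithelium, held more *Spry2*: 106 CPM in 100 cells against 37.6 in 624 at E14.5, a ratio of 1.28 (0.98 to 1.59), and 83.8 CPM in 397 cells against 34.2 in 993 at E16.5, a ratio of 1.09 (0.91 to 1.26). It was the 1 member past 2-fold in these cells at both stages, and *Etv4* was at 0.03 and 0.29. Cells with *Sox2*, the stem cell factor of the incisor, held more *Etv5* at E16.5, 70.6 CPM in 111 cells against 27.9 in 1279, a ratio of 1.09 (0.84 to 1.33). *Dusp6* was at 0.95 (0.73 to 1.17) and *Fgfr2* at -0.67 (-0.92 to -0.42) in the same cells. At E14.5 the *Sox2* cells gave 0.46 (0.18 to 0.74) for *Etv5* and 0.04 for *Dusp6*. The share of all genes past 2-fold higher was 1.98% and 0.724% for *Shh* and 0.827% for *Sox2* at E16.5.

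Cells with *Krt15*, a keratin of basal surface epithelium and one of the epithelial lineage markers, held less *Etv4* at both later stages. The other members past 2-fold differed between the stages. At E14.5, 81 such cells held 1.41 CPM of *Etv4* against 59.3 in the others, a ratio of -2.60 (-2.79 to -1.94). *Dusp6* was at -2.24 (-2.78 to -1.67), *Etv5* at -1.69 (-2.23 to -1.09) and *Fgfr1* at -1.42 (-1.88 to -0.97), whereas *Fgfr2* was at 0.58 (0.19 to 0.97). These were 4 members past 2-fold lower, where 2.78% of all genes were. At E16.5, 2 members were past 2-fold lower, where 1.18% of genes were. These were *Etv4* at -1.64 (-1.95 to -1.22) and *Spry2* at -1.32 (-1.68 to -0.95), so *Dusp6*, *Etv5* and *Fgfr1* were not among them at E16.5. *Spred1* was at 1.64 (1.47 to 1.80) there, 221 CPM in 90 cells against 64.2 in 1300, where 2.22% were past 2-fold higher. At E14.5 *Spred1* was at -0.72 (-1.18 to -0.26) in the *Krt15* cells, so its sign differed between the stages.

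In mesenchyme, cells with a UMI of *Fgf3*, a ligand of the dental papilla, had *Fgfr2* past 2-fold lower at both later stages, with *Dusp6* past 2-fold higher at E14.5 and *Etv4* at E16.5. In 378 cells with *Fgf3* at E14.5, *Dusp6* was at 69.6 CPM against 22.5 in the others, a ratio of 1.29 (1.07 to 1.51), *Etv4* at 0.96 (0.70 to 1.21), *Etv5* at 0.72 (0.47 to 0.96) and *Fgfr2* at -1.23 (-1.49 to -0.91). At E16.5, in 201 cells, *Etv4* was at 1.24 (0.96 to 1.49) and *Fgfr2* at -1.12 (-1.41 to -0.80), but *Dusp6* at 0.22 (-0.08 to 0.54). Cells with *Fgf10* at E14.5 had *Fgfr2* at -1.07 (-1.38 to -0.68), where 0.425% of genes were past 2-fold lower, and *Dusp6* at 0.74 (0.46 to 1.01). At the other stages the *Fgf10* cells passed 2-fold in no member, with *Fgfr2* at 0.10 (-0.12 to 0.33) at E11.5, and at E16.5 *Fgfr2* at -0.73 (-0.96 to -0.50) and *Dusp6* at -0.01 (-0.26 to 0.24). In 391 cells with *Sox9*, a factor of cartilage precursors, *Fgfr2* was at 1.18 (0.88 to 1.48) and *Etv4* at -1.02 (-1.36 to -0.58) at E14.5. *Fgfr2* with *Sox9* had the other sign at E11.5, at -0.48 (-0.62 to -0.34), and was at -0.17 (-0.37 to 0.03) at E16.5, where *Etv4* was at 0.25 (0.02 to 0.48). At E14.5 the 53 cells with *Barx1* gave *Fgfr2* 1.05 (0.25 to 1.79) and *Etv4* -1.03 (-1.59 to 0.29), the latter interval holding 0. The share of genes past 2-fold higher and lower was 0.472% and 2.35% for *Fgf3* at E14.5 and 0.786% and 1.93% at E16.5. At E14.5 it was 0.481% and 0.349% for *Sox9* and 3.03% and 2.82% for *Barx1*. At E11.5 no member passed 2-fold with any of the 6 markers run, where 0.14% of all gene ratios did, and the ratio farthest from 0 among *Fgfr2*, *Etv4*, *Etv5* and *Dusp6* was that of *Dusp6* with *Sox9* at 0.78 (0.67 to 0.89). Cells with a marker were deeper in most pairs, for example 6322.5 against 3156 UMIs at the median for *Fgf3* at E14.5, and CPM corrects for depth but not for which cells yield a UMI.

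Cells were clustered without the members or the other FGF pathway genes, and clusters of 1 lineage were set side by side, by limits on their size, purity and depth that were set with the data in view. The ratio of the highest to the lowest cluster is above 0 by construction. In E16.5 epithelium, *Fgfr2* and *Fgfr1* were highest in different clusters. Cluster 1, of 522 cells led by *Tenm2*, *Maf* and *Wnt4*, had the highest *Fgfr2* at 128 CPM but 3.78 of *Etv4*, 5.50 of *Etv5* and 11.51 of *Dusp6*, and the lowest *Fgfr1* at 143. Cluster 0, of 846 cells led by *Vwde*, *Igfbpl1* and *Shh*, had the highest *Etv4* at 51.9 CPM, *Spry2* at 81.4 and *Spry1* at 26.2, beside 78.85 of *Fgfr2*. Cluster 2, of 217 cells led by *Cldn10* with *Sox2* among its leading genes, had the highest *Etv5* at 96.5 CPM, *Dusp6* at 128, *Fgfr1* at 298 and *Spred1* at 157, and the lowest *Fgfr2* at 50.4. *Etv4* and *Etv5* therefore peaked in different clusters. Between the highest and the lowest cluster, 8 of 10 members were past 2-fold, from 2.78 for *Etv5* (2.54 to 2.99) down to 1.01 for *Fgfr1* (0.88 to 1.14), against 6.28% of 11164 genes. *Fgfr3* and *Spry4* stayed within 2-fold. The E14.5 epithelium fell into 1 cluster that met the limits and gave no such comparison.

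In E14.5 mesenchyme, among 5 clusters, the one with the highest *Etv4*, *Etv5* and *Dusp6* had the lowest *Fgfr2*. Cluster 1, of 1264 cells led by *Crym*, *Egr3* and *Fgf3*, had the highest *Dusp6* at 53.3 CPM, *Etv4* at 34.7, *Etv5* at 40.6 and *Spry4* at 22.7, and the lowest *Fgfr2* at 5.39. Cluster 6, of 551 cells led by *Osr1* and *Ebf2*, had the highest *Fgfr2* at 41.7 CPM and the lowest *Etv5* at 6.15 and *Spry4* at 0.683. Cluster 3, led by *Sfrp4* and *Stmn2*, had the highest *Fgfr1* at 215 and *Fgfr3* at 13.99 CPM and the lowest *Dusp6* at 6.27. Cluster 2, of 52 mostly mesenchymal cells, was outside the limits and is not among the 5. It read 443 CPM of *Fgfr1* (319 to 599) and 84.4 of *Dusp6* (36.4 to 166), but 10.55 of *Etv5*. Highest over lowest, *Dusp6* was at 1.96 (1.70 to 2.19), *Fgfr2* at 1.75 (1.41 to 2.05), *Etv5* at 1.65, *Spry4* at 1.61 and *Etv4* at 1.59, so that 5 of 10 members passed 2-fold, against 16.1% of 10577 genes. The median depth was 5282 UMIs in cluster 1 and 2442 in cluster 6, and the part of depth was not tested.

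At E11.5, 5 of 9 members passed 2-fold among 4 mesenchymal clusters, against 2.56% of 11833 genes. Cluster 1, of 1437 cells led by *Shox2* and *Barx1*, had the highest *Dusp6* at 72.3 CPM, *Spry1* at 23.0 and *Spry2* at 28.3, and the lowest *Fgfr2* at 6.64. Cluster 3, led by *Pax3* with *Msx1* and *Msx2*, had the highest *Etv4* at 16.7 and *Etv5* at 34.1 CPM. Cluster 4, of 1573 cells led by *Plagl1* and *Cited1*, had the highest *Fgfr2* at 27.4 CPM together with 32.7 of *Etv5* and 13.03 of *Etv4*, so high *Fgfr2* did not go with low *Etv5* here. Cluster 0, of 1246 cells led by *Dclk1* and *Meis1*, had the lowest *Dusp6* at 15.9, *Etv4* at 0.922, *Etv5* at 4.98, *Spry1* at 2.95 and *Spry4* at 0.830 CPM. *Fgfr1* lay between 108 and 126 CPM in these 4. In cluster 5, of 677 mostly mesenchymal cells and outside the limit on depth, it was at 141.6 CPM (122.8 to 162.5). With a clustering resolution of 0.2 in place of 0.4, 0 members passed 2-fold at E11.5, and 1 (*Fgfr2*) in the E16.5 mesenchyme described next. In E16.5 mesenchyme 3 of 10 members passed 2-fold among 4 clusters, against 11.4% of 11176 genes: *Fgfr2* at 1.42, *Etv4* at 1.13 and *Fgfr3* at 1.06. *Dusp6* lay between 8.15 and 11.52 CPM in all 4, a ratio of 0.25 (-0.04 to 0.52).

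**Figure D5:**
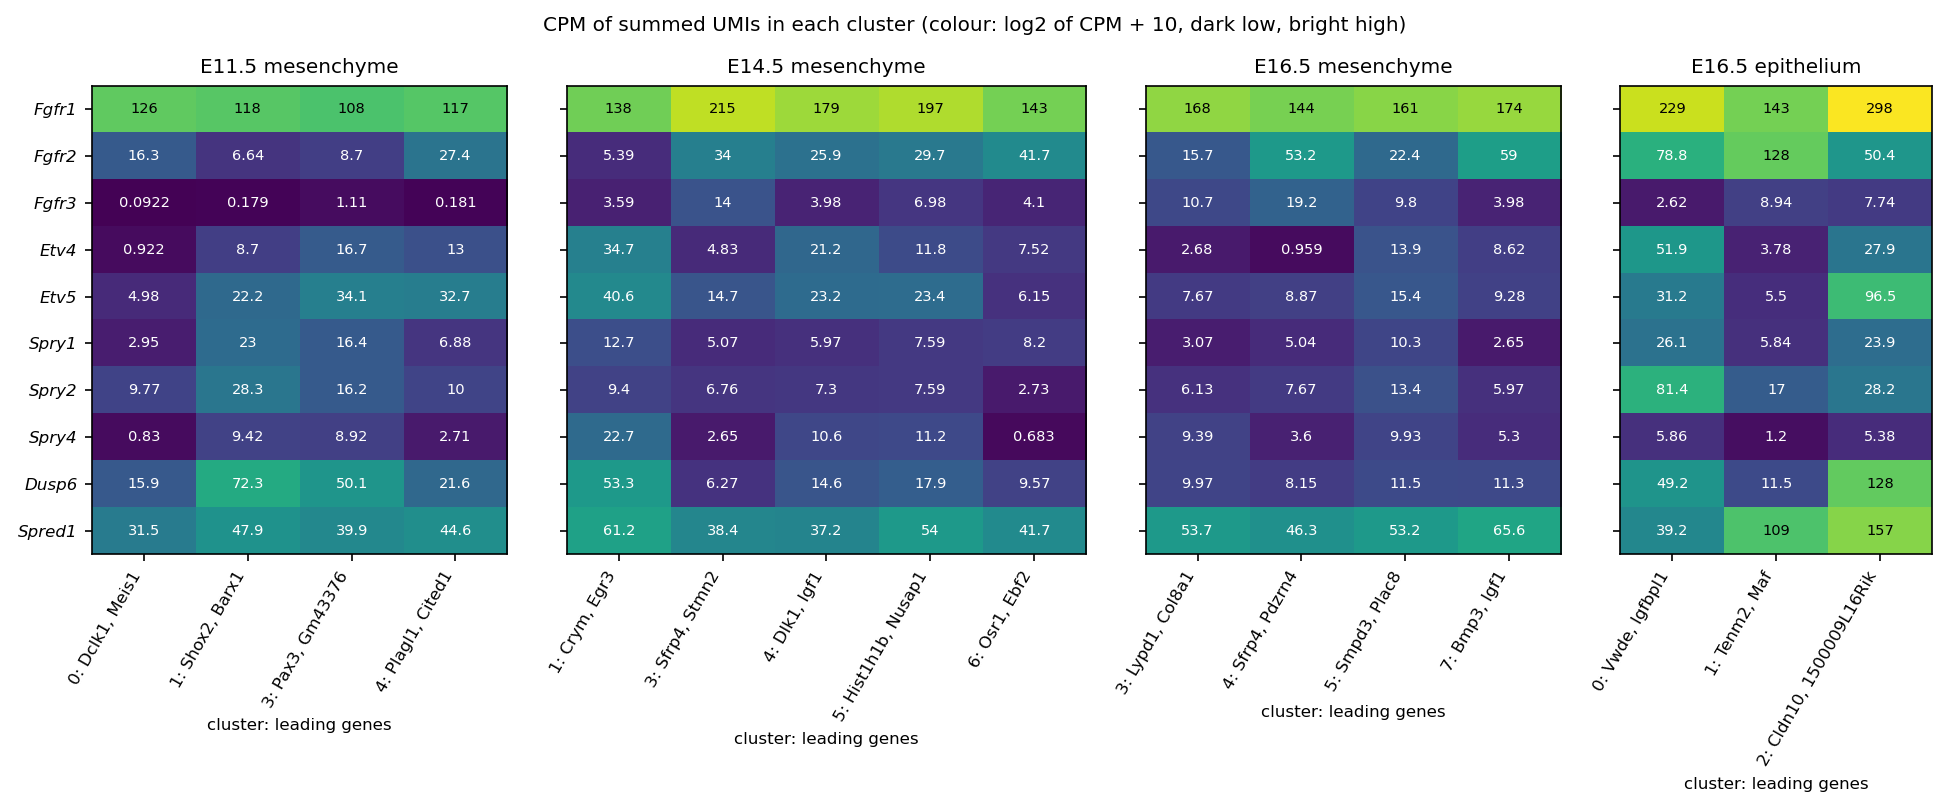
CPM of summed UMIs of each member (rows) in the clusters of 1 lineage (columns, with their number and 2 leading genes), in 4 panels by stage and lineage; colour is log2 of CPM + 10 from dark (low) to bright (high). E16.5 epithelial cluster 1 and E14.5 mesenchymal cluster 6 have the brightest *Fgfr2* of their panel beside dark *Etv4*, *Etv5* and *Dusp6*, whereas E11.5 cluster 4 has the brightest *Fgfr2* of its panel beside *Etv5* at 32.7 CPM.

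Other genes of the pathway were read from a list of 43 receptors, adaptors and kinases, targets and inhibitors. Of 38 with enough UMIs, 3 were past 2-fold higher in epithelium at E14.5 and 1 lower, with a median ratio of 0.20, and of 37 at E16.5, 2 were higher and 1 lower, with a median of 0.15. Of all genes, 3.78% were higher and 4.24% lower at E14.5, and 3.57% and 4.57% at E16.5, also for the ligands below. *Etv1*, the third member of the *Etv4* family, was at 1.31 (1.15 to 1.46) and 1.53 (1.40 to 1.65), and the GTPase *Hras* at 1.63 (1.52 to 1.75) and 1.84 (1.75 to 1.92). *Ccnd1*, a cyclin, was at 1.94 (1.80 to 2.07) at E14.5, and the kinase *Rps6ka3* was the lower gene at -1.26. The immediate early gene *Fos* was the lower gene at E16.5, at -1.28, and belongs to the stress list as well. Of 14 ligands, 8 had enough UMIs at E14.5 and 6 at E16.5, of which 2 and 1 were higher in epithelium and 3 and 4 lower.

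The same list was also read between stages. In epithelium from E14.5 to E16.5, 0 of 37 were higher and 2 lower, where 1.18% of all genes were higher and 0.339% lower. The 2 were *Flrt3* at -1.12 (-1.27 to -0.96) and *Flrt2* at -1.03 (-1.20 to -0.86), membrane proteins that bind FGF receptors. In mesenchyme over the same stages, 4 of 38 were higher and 1 lower, where 1.25% of all genes were higher and 0.419% lower. *Flrt2* was the lower gene at -1.59 (-1.71 to -1.46). Among the higher were *Ccnd1* at 1.41, *Egr1* at 1.09 and *Fos* at 1.05. From E11.5 to E14.5 in mesenchyme, 2 of 39 were higher and 3 lower, where 2.82% of all genes were higher and 1.94% lower. *Ccnd1* was at -3.36 (-3.46 to -3.26), *Dusp9* at -1.14 and *Flrt3* at -1.09, against *Fos* at 3.31 and *Egr1* at 2.94. *Fos* and *Egr1* are on the stress list. In endothelium 8 of 38, 7 of 37 and 11 of 36 were higher than in mesenchyme from E11.5 to E16.5, and 4, 1 and 2 lower. Of all genes 6.94%, 6.51% and 6.70% were higher and 6.06%, 7.28% and 8.44% lower. The ETS factor *Elk3* was at 1.70, 1.64 and 2.10, and *Flrt3* was lower at -2.92, -1.71 and -1.75.

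The genes whose levels followed a member most closely were ranked by Pearson's r of log2 (CPM + 10) over the 11 groups of at least 50 cells, among 4773 genes. The groups share libraries and stages, and r is given as a description. *Fgfr2* was closest to *Hs3st3b1* (0.982), *Kctd1* (0.976) and *Dlx2* (0.967), and *Spry2* to *Asxl2* (0.967), *Etv1* (0.956) and *Zdhhc21* (0.955). *Spry4* was closest to *Rhoj* (0.989), *Dgkh* (0.984) and *Nid2* (0.974), and *Spry1* to *Sgk1* (0.934). *Fgfr1* was closest to *Neo1* (0.985) and *Fgfr3* to *Vldlr* (0.977). *Dusp6* (*Cemip2*, 0.948), *Etv5* (*Fam162a*, 0.927) and *Etv4* (*Kcnmb4*, 0.891) had less close partners, and *Spred1* was closest to *Irf2bp2* (0.966). No member was among the 3 closest genes of another.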

How the data were processed

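Wild-type NMRI mouse cells were dissociated with collagenase P and sequenced as 10x 3' libraries. The deposited values are UMI counts per gene and cell, made by the authors with Cell Ranger 4.0.0 against the mm10 reference, with no normalization. Filtering (at least 700 genes, at most 20% mitochondrial UMIs), lineage calls from marker UMIs, sums and ratios were computed here. The kept cells held from 27765839 to 47513863 UMIs per stage, with 864 to 123785 in a cell. CPM is given with an exact Poisson interval, shares with a Clopper-Pearson interval, and log2 ratios of CPM + 10 with a conditional binomial interval. UMI counts of 0 allow up to 3 counts. Since each stage was 1 pooled matrix, no p-value is given.

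Clusters were found with scanpy 1.11.5 and leidenalg 0.10.2 on 2000 variable genes, 20 principal components and a resolution of 0.4, without the members, the pathway list or the ligands. This differs from the SCTransform and Harmony workflow of the study. Scrublet's own threshold called 0 doublets at each stage, so no cells were removed as doublets, and an alternative dropped the top 5% of cells by score. Thinning drew 2000 UMIs per cell with a fixed seed. Python 3.11.15, numpy 2.4.6, scipy 1.17.1 and pandas 2.3.3 were used, and the scripts were tested on simulated data.

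The members, the marker, pathway and stress lists and the tests were chosen with earlier results of these data known. Apart from the members, pathway genes were named when they were among the 3 highest or 3 lowest ratios of a comparison, and the 3 genes most like a member by Pearson's r. Alternatives changed the cell filter, the lineage call, the doublets, the depth, the added CPM, the UMI minimum, the fold and the cluster resolution.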

Additional observations from a re-analysis of the deposited data

Results flagged for a closer look

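Ratios of epithelium or endothelium over mesenchyme, and of E16.5 over E14.5, were searched for opposite signs in 2 settings (stages or lineages). Such effects, each with a counting interval that left out 0, were found for 3 members. Cells with a regional marker were not part of this search, and signs that differed between stages there are given above. The difference between the settings was not tested in any of them, since each stage was 1 sample. *Fgfr1* had a log2 ratio of epithelium over mesenchyme that was -0.57 (-0.69 to -0.46) at E14.5, whereas the E16.5 ratio was 0.34 (0.27 to 0.41). From E14.5 to E16.5 its ratio was 0.82 (0.70 to 0.93) in epithelium and -0.10 (-0.17 to -0.03) in mesenchyme, which are the same 4 levels read the other way. *Spry4* over the same stages was at 0.29 (0.08 to 0.44) in epithelium, from 11 and 69 UMIs, and at -0.35 (-0.50 to -0.20) in mesenchyme. *Etv4* in endothelium over mesenchyme was at -0.69 (-1.20 to -0.05) at E14.5, from 6 endothelial UMIs, and at 0.56 (0.09 to 1.06) at E16.5, from 14.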

How the results depend on the processing

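No paired analysis was possible because the labelled samples of a stage share 1 matrix with no sample names on the barcodes, and for the same reason no sample could be left out. Of 870 log2 ratios between lineages or stages under the alternatives, 7 changed sign, 0 of them with a reported ratio of 0.5 or more in size. Among all 1022 ratios, 200 moved beyond their interval and 2 reversed, both for cells with *Etv4* or *Etv5*: *Fgfr2* in E14.5 epithelium was at 0.25 when thinned to 1000 UMIs, and *Spry1* in E16.5 epithelium at -1.45 when 2 UMIs were required. Of 216 counts of members, 43 moved by over 1.5 times. For epithelium over mesenchyme at E14.5 the 3 higher members became 5 with 1 CPM added or at 1.5-fold and 0 with 50 CPM, and the 0 lower became 2 and 1 with 1 CPM and at 1.5-fold, while at E16.5 the 5 higher became 0 with 50 CPM. From E14.5 to E16.5 in epithelium, 1 CPM gave 1 higher and 1 lower, and 1.5-fold gave 2 and 2. From E11.5 to E14.5 in mesenchyme, 1 CPM gave 3 higher and 1 lower, and 1.5-fold gave 2 higher. From E14.5 to E16.5 in mesenchyme the 1 lower member became 3 with 1 CPM or at 1.5-fold, and 0 with 50 CPM, at least 200 genes, the lineage of the cluster, the mean per cell or thinning to 2000 UMIs. For endothelium at E11.5, 50 CPM left 0 higher and 0 lower and the mean per cell 1 lower. For endothelium at E14.5, 50 CPM left 0 higher and 1 lower, the lineage of the cluster 1 lower, and 1 CPM or 1.5-fold gave 5 lower. For endothelium at E16.5, thinning left 1 higher, with *Spry1* and *Spry4* under the minimum of 50 UMIs, and 50 CPM 1 lower. For cells with *Etv4* or *Etv5*, thinning to 1000 UMIs gave 1, 0, 1 and 0 higher in E11.5 mesenchyme, E14.5 mesenchyme, E16.5 epithelium and E16.5 mesenchyme. No thinning gave 1 and 0 at E14.5 and 1 and 0 at E16.5 in epithelium and mesenchyme, and 2 required UMIs gave 3 and 1 in E14.5 and E16.5 epithelium. Among clusters, a resolution of 0.2 left 0 members in E11.5 and 1 in E16.5 mesenchyme. At 0.2 the count of 1 other set of clusters stayed within 1.5 times, and the remaining set gave no comparison. A resolution of 0.8 gave 5 in E16.5 mesenchyme. The shares of all genes given above belong to the reported settings. None is set beside the counts of this paragraph, which describe the calls and do not compare the members with other genes. Added CPM and fold act through the threshold, and for the others the cause was not tested. The E11.5 endothelium by cluster gave no value. The comparisons of endothelium and the 1.5-fold threshold were chosen after seeing the data. Depth limited *Fgfr3* and *Spry4* in epithelium, *Fgfr2* in endothelium and all 10 members in the 10 epithelial cells of E11.5.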
